A study of Mus musculus with 12 samples.

Results

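The integrated stress response genes described here are Atf4, Atf3, Ddit3, Trib3, Ppp1r15a, Chac1, Asns, Sesn2, Ddit4 and Gdf15. They were chosen by symbol from the known core of the response, after gene identifiers had been matched to the mouse annotation, and are 10 of the 55335 genes listed in each expression table. The choice was made with earlier results of these data known, so shares of these genes set beside those of all genes are descriptive. RNA was sequenced from mouse bone marrow-derived dendritic cells (BMDCs) grown from C57BL/6 CreER bone marrow with GM-CSF for 6 days, of which the study's methods kept floating cells selected with beads for CD11c, the product of Itgax. CTCF was intact in all 4 groups, and every group shared the CreER background, in which Cre recombinase fused to an estrogen receptor is expressed from the Rosa26 locus. To delete Ctcf, the study added 4-hydroxytamoxifen on the first day of culture. Whether the cultures of these 4 groups received it is not clear from the sources used here. Each group held 3 libraries. WT cells received neither agent, and WTL cells received 100 ng/ml LPS for 3 h. WT+JSH23 cells received 100 µM JSH-23 for 3 h. WTL+JSH23 cells received 100 µM JSH-23 for 3 h and then 100 ng/ml LPS for 3 h. The time from the start of JSH-23 to harvest may therefore differ between the groups with JSH-23. JSH-23 is a small molecule used to block the entry of NF-κB into the nucleus, and LPS is the bacterial cell wall component sensed by TLR4. Cells came from mice of both sexes aged 8 to 12 weeks. Whether WT and WTL cells received the solvent of JSH-23, and whether JSH-23 stayed on the cells during LPS, is not given in the sources used here.

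The integrated stress response is a shared answer of cells to amino acid shortage, heme shortage, misfolded protein in the endoplasmic reticulum (ER), mitochondrial stress or double-stranded RNA. Any of several kinases phosphorylates the translation factor eIF2, general protein synthesis slows, and the messenger RNA of the transcription factor ATF4 is translated more. ATF4, alone or with the related factors ATF3 and CHOP (the product of Ddit3), then raises genes for amino acid supply, redox balance and feedback on the response itself. Because ATF4 is controlled largely at translation, RNA levels give the transcript and the targets but not ATF4 protein or eIF2 phosphorylation, neither of which was measured here. In dendritic cells the response is known to meet Toll-like receptor signalling and cytokine production.

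The short element bound by ATF4 with a C/EBP partner has the core TGATGCAA, and the looser form TGATGNAA contains it. All 10 genes had a promoter window in the RefSeq set (build GRCm38.p6), running from 250 bases before to 50 bases after the annotated start. On either strand, TGATGCAA stood in the windows of 2 of the 10 genes, Atf3 and Chac1, against 1.03% of 27025 genes with a window. TGATGNAA stood in 4 of 10, those 2 plus Asns and Trib3, against 4.51% of all genes. The 3 stretches upstream of a RefSeq start are printed here because Atf3, Chac1 and Asns carry this element and behave differently in the results. Capitals mark the match to TGATGNAA on either strand, and each sequence is written 5′ to 3′ on the strand of its gene.
Atf3, chr1:191183401-191183478, minus strand: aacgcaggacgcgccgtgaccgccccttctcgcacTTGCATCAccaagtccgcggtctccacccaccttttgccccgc
Chac1, chr2:119351014-119351091, plus strand: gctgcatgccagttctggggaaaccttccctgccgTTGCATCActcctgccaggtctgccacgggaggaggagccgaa
Asns, chr6:7693210-7693267, minus strand: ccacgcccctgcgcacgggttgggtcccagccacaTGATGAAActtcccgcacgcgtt
The match lay 110 to 103 bases before the RefSeq start in Atf3, 193 to 186 bases before it in Chac1 and 23 to 16 bases before it in Asns. That of Trib3 lay 14 to 21 bases after the RefSeq start. The gene spans given below come from another annotation. By those, the matches of Atf3 and Asns lie inside the gene and those of Chac1 and Trib3 before it. CCACG, part of the ER stress element, was found in 6 of 10 windows (Chac1, Sesn2, Asns, Ppp1r15a, Ddit4 and Atf4) against 35.5% of all genes, and the cyclic AMP response element TGACGTCA in 1, Ppp1r15a, against 2.03%. These matches describe letters in a short window, not binding.

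The libraries held 24664724 to 34837847 expected counts, with 3.15% to 3.64% of them from mitochondrial genes. All 8 dendritic cell markers were detected in every library, with a summed level of 12870 to 13110 counts scaled to 1e+06 per library (CPM) in WT, 15000 to 15940 in WTL, 12160 to 12540 in WT+JSH23 and 13360 to 14620 in WTL+JSH23. With JSH-23, 4 of them were lower and 2 higher without LPS, and 5 lower and 2 higher with it. Summed markers of T, B and NK cells reached at most 1.07 CPM, and those of erythroid cells at most 0.106 CPM, with 2 of the 5 erythroid markers at 0 in all libraries. For macrophage markers, the summed level was 2474 to 2643 CPM in WT, 1909 to 2024 in WTL, 1860 to 1905 in WT+JSH23 and 1556 to 1577 in WTL+JSH23. With JSH-23, 6 of the 8 passed the test as lower and 1 as higher, both with and without LPS. The neutrophil sum was 41.6 to 63.0 CPM over all groups. All 6 testable neutrophil markers were lower in WTL+JSH23 than in WTL, and 1 was lower in WT+JSH23 than in WT. Of all genes tested, 18.8% were higher and 22.1% lower with JSH-23 without LPS, and 24.5% higher and 24.2% lower with it. Selection for CD11c would remove neutrophils and does not separate macrophages that carry CD11c. In such bulk samples, fewer cells of a type and less RNA per cell cannot be told apart, and the part of these shifts in the results below was not tested. The labels number the libraries without JSH-23 from 4 to 6 and those with it from 1 to 3 and do not say whether both sets were grown together, so an effect of JSH-23 and of such a set cannot be told apart.

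One library stood apart. Within groups, the difference between pairs of libraries was 2.31 to 4.38 times the sampling variance of the counts, except for the pairs with replicate 3 of WTL+JSH23, at 7.87 and 8.72 times. That library had the highest level of its group for all 10 stress genes, whereas it was the highest for 38.4% of the 14357 genes tested. Replicate 3 of WT+JSH23 was the highest of its group for 9 of 10, with Ddit4 as the exception, against 32.4% of all genes. In WT, replicate 6 was the highest for 7 of 10, and in WTL the highest values were spread over replicates 4, 5 and 6 (4, 3 and 3 genes). The excess in replicate 3 of WTL+JSH23 over the mean of the other libraries of that group ranged from 1.12 times for Sesn2 to 1.72 times for Gdf15, with 1.65 times for Trib3 and 1.54 times for Chac1. Results with and without this library are given below.

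**Figure D1:**
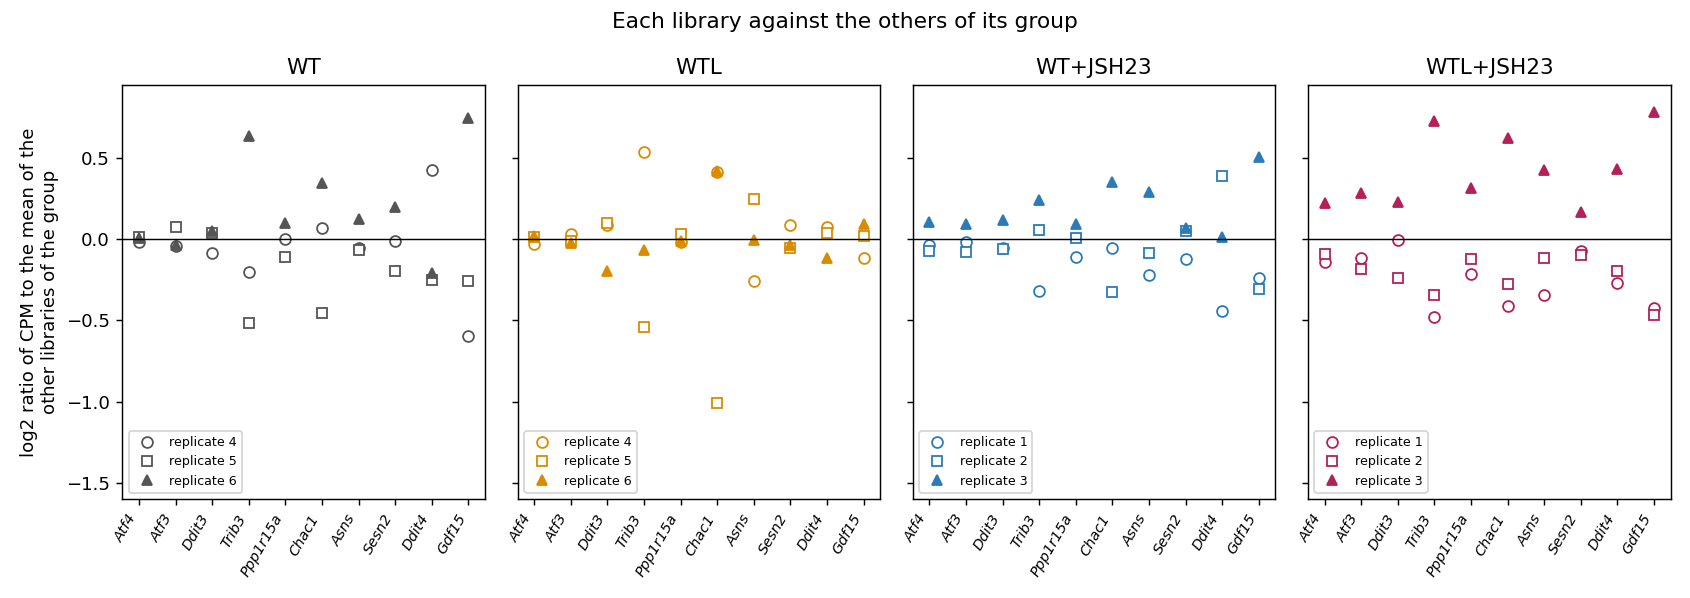
Log2 ratio of each library's CPM to the mean of the other libraries of its group, for the 10 genes (x axis) in each group (panels), with filled triangles for replicates 6, 6, 3 and 3 from left to right. Replicate 3 of WTL+JSH23 lies above 0 for all 10 genes.

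With JSH-23 alone, the transcripts of the stress response rose. Of the 10 genes, 9 were higher in WT+JSH23 than in WT at an adjusted p under 0.05, against 18.8% of all genes tested, and none was lower, against 22.1%. Chac1, Gdf15, Trib3 and Asns, all known outputs of ATF4, rose more than 2-fold (4 of 10, against 2.43% of all genes), by 19.3-, 16.3-, 9.63- and 5.88-fold. The median log2 fold change of the 10 genes was 0.68, beside -0.01 for all genes. Ddit4 was the gene without a call, at 5.78 ± 1.04 CPM (SD, n = 3) in WT and 5.18 ± 0.99 in WT+JSH23.

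Under LPS, JSH-23 had a similar set of differences with a higher median. In WTL+JSH23 against WTL, 9 of 10 genes were higher (24.5% of all genes) and 1, Ppp1r15a, was lower (24.2%). More than 2-fold rises were found for Trib3 (23.9-fold), Chac1 (15.5-fold), Asns (9.40-fold), Gdf15 (9.36-fold) and Atf4 (2.11-fold), 5 of 10 against 3.75% of all genes. The median log2 fold change of the 10 genes was 1.03, beside 0.02 for all genes. Without replicate 3 of WTL+JSH23 the 9 rises still passed, and the log2 fold changes of Trib3, Chac1, Asns and Gdf15 were 4.30, 3.72, 3.08 and 2.92. That of Atf4 was then 1.00, at the edge of the 2-fold limit.

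With LPS, the genes passed in both directions. The shares that were lower lay near those of all genes. The shares that were higher lay above them, but with 10 genes this rests on few of them in WTL against WT. Among the genes higher there, Atf4 changed sign on the TPM scale (-0.08, adjusted p = 0.17). In WTL against WT, 5 of 10 were higher (31.0% of all genes) and 3 lower (34.7%), and Gdf15, Chac1 and Ppp1r15a rose more than 2-fold (3 of 10, against 7.36%). After JSH-23, 7 of 10 were higher in WTL+JSH23 than in WT+JSH23 (27.4%) and 2 lower (27.1%), and Gdf15, Ddit4, Chac1 and Ppp1r15a rose more than 2-fold (4 of 10, against 5.85%). Without replicate 3 of WTL+JSH23 this number was 3, since the log2 fold change of Ppp1r15a was then 0.96, and on the TPM scale it was 0.85. Asns, at 0.91, passed 2-fold without replicate 3 of WT+JSH23 (1.01) or replicate 1 of WTL+JSH23 (1.02). The LPS comparisons and the JSH-23 comparisons share libraries, so their values are set side by side and not counted as separate support. The interaction, in which the LPS response of untreated cells is subtracted from that of cells given JSH-23, passed for 4 genes in the positive direction (Trib3, Ddit4, Asns and Sesn2, against 9.54% of all genes) and for 1 in the negative direction (Ppp1r15a, against 8.44%).

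**Figure D2:**
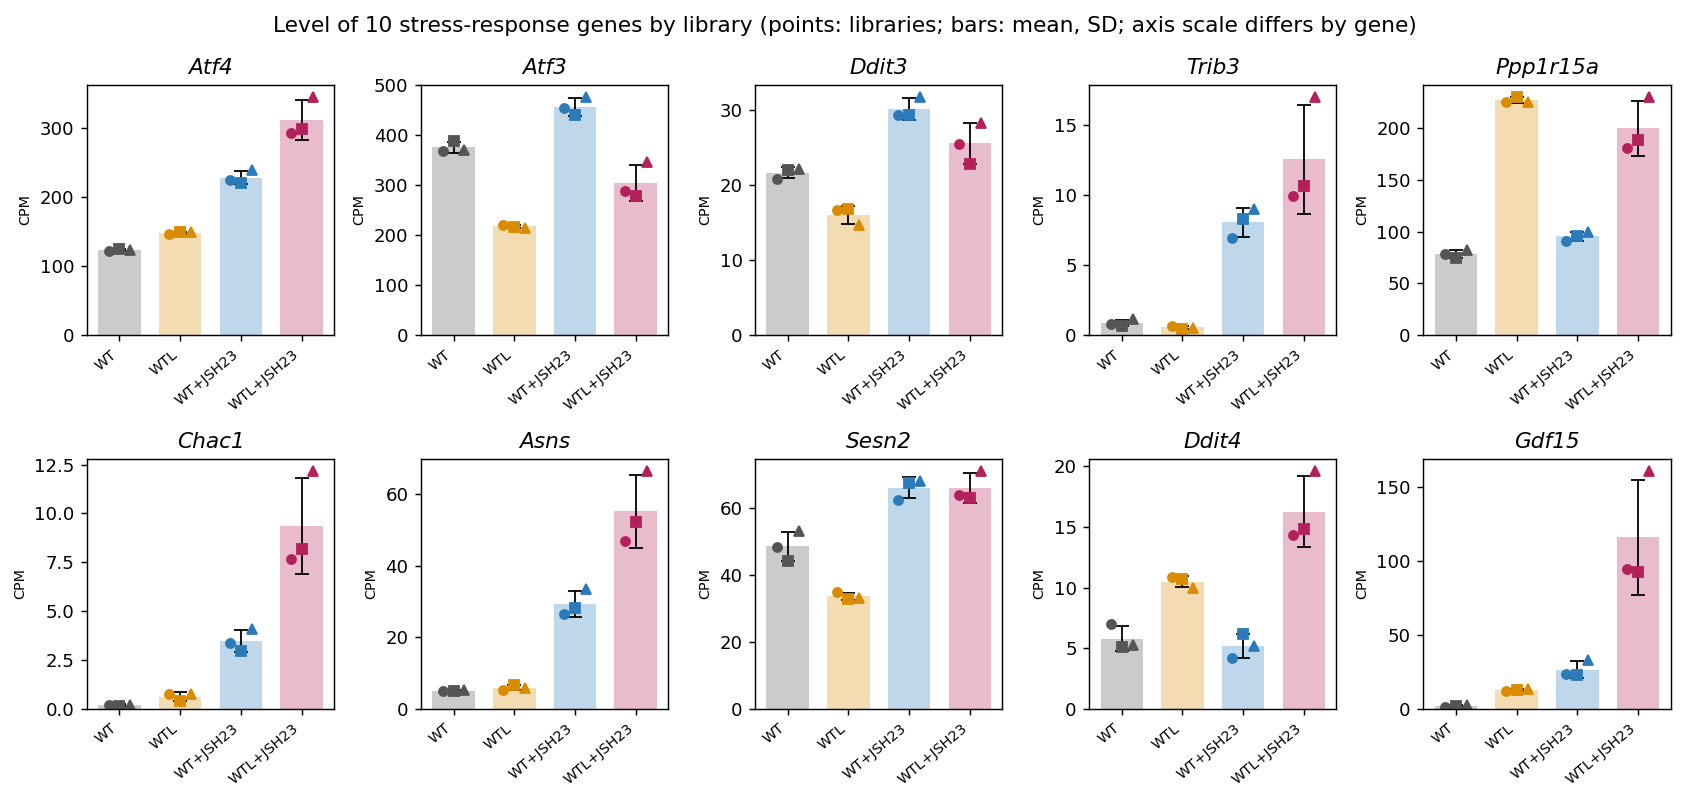
CPM of each gene in the 4 groups, with a point for each library, bars for the mean and error bars for the SD (n = 3), on axes that start at 0 and differ between genes. Trib3, Chac1, Asns and Gdf15 are low without JSH-23, and Ppp1r15a follows LPS.

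**Figure D3:**
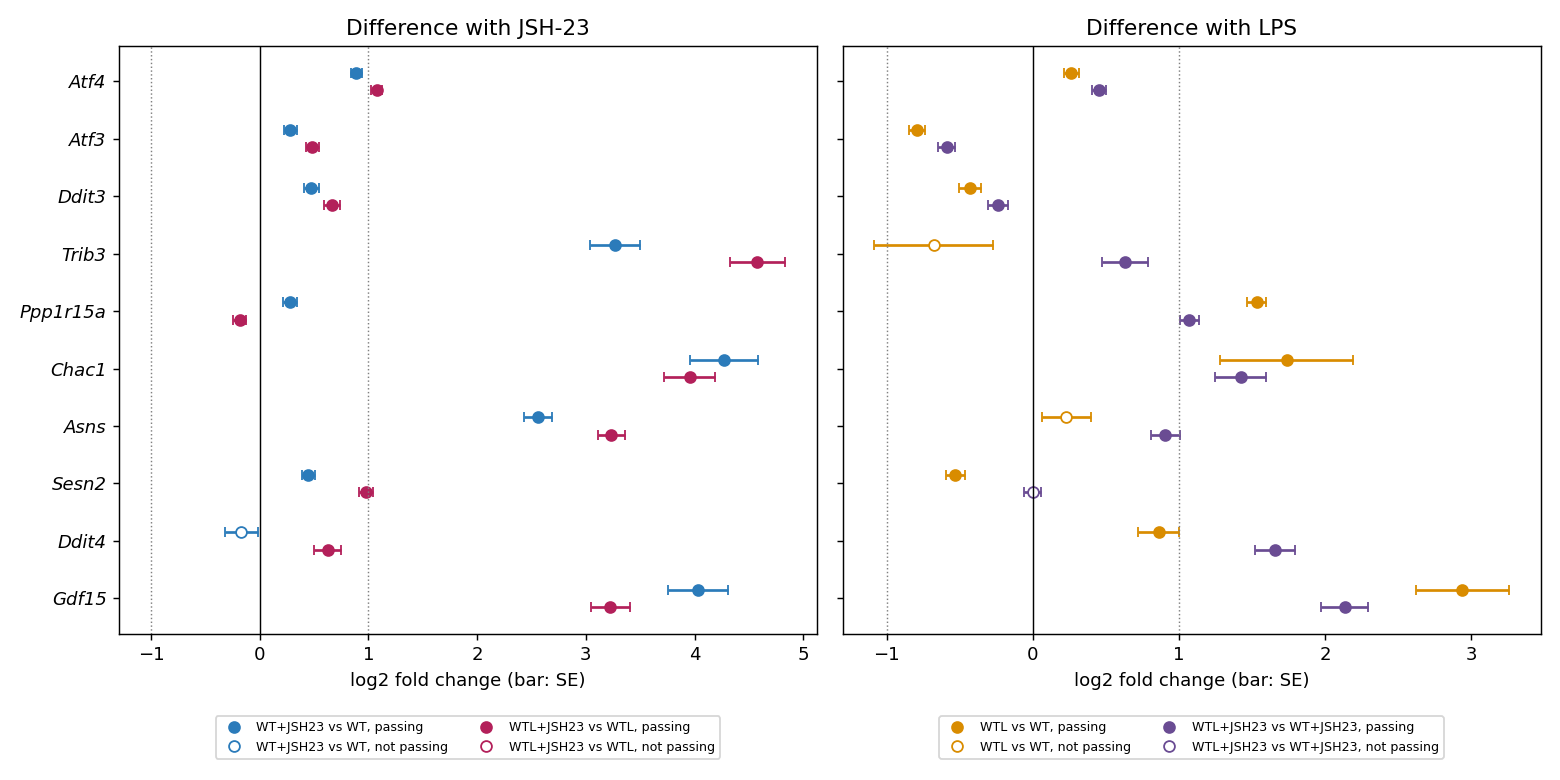
Log2 fold change with its standard error for each gene, with JSH-23 (left) and with LPS (right), filled where the adjusted p was under 0.05 and with dotted lines at 2-fold. Trib3, Chac1, Asns and Gdf15 lie beyond the dotted line in both JSH-23 comparisons.

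Atf4 encodes the central transcription factor of the response (ENSMUSG00000042406.8, chr15:80255184-80257541, plus strand). Its levels were 122.1, 124.0 and 123.5 CPM in WT, 145.9, 148.6 and 149.0 in WTL, 223.9, 220.6 and 239.1 in WT+JSH23, and 292.2, 298.8 and 345.1 in WTL+JSH23. No 2 groups overlapped, and the order was WT, WTL, WT+JSH23, WTL+JSH23. The log2 fold change with JSH-23 was 0.89 (SE 0.051, adjusted p = 6.4e-12) without LPS and 1.08 (SE 0.051, adjusted p = 2.23e-13) with it. The rise with LPS alone was small, at 0.26 on the log2 scale (adjusted p = 0.000123), and its sign turned on the TPM scale (-0.08, adjusted p = 0.17), where the median of all genes shifts by -0.295 in this comparison. After JSH-23 the LPS rise was 0.45 (adjusted p = 9.48e-08). The interaction of 0.19 did not pass (adjusted p = 0.0695), but did without replicate 3 of WT+JSH23 (0.0447) or without replicate 1 (0.0286) or 2 (0.044) of WTL+JSH23.

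Atf3 (ENSMUSG00000026628.13, chr1:191170296-191218039, minus strand) and Ddit3 (ENSMUSG00000025408.15, chr10:127290774-127296288, plus strand) encode the bZIP factors ATF3 and CHOP, which act downstream of ATF4. Atf3 was at 368.0, 388.5 and 369.0 CPM in WT, 220.3, 215.7 and 214.6 in WTL, 452.9, 440.0 and 476.2 in WT+JSH23, and 287.5, 278.6 and 344.8 in WTL+JSH23. No groups overlapped, with WTL the lowest and WT+JSH23 the highest. Ddit3 had the same outer groups: 20.8, 22.0 and 22.2 CPM in WT, 16.7, 16.8 and 14.6 in WTL, 29.4, 29.3 and 31.8 in WT+JSH23, and 25.5, 22.8 and 28.3 in WTL+JSH23. Both genes thus fell with LPS and rose with JSH-23. The fall of Atf3 with LPS was -0.79 on the log2 scale (SE 0.057, adjusted p = 8.37e-11) and that of Ddit3 was -0.43 (SE 0.074, adjusted p = 3.31e-05). After JSH-23 the falls were -0.59 (adjusted p = 1.37e-08) and -0.24 (adjusted p = 0.00514).

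The rises with JSH-23 were below 2-fold for both factors. For Atf3 they were 0.28 without LPS (adjusted p = 0.000303) and 0.48 with it (adjusted p = 3.86e-07), the latter 0.39 without replicate 3 of WTL+JSH23. For Ddit3 they were 0.48 (adjusted p = 5.72e-06) and 0.66 (adjusted p = 1.82e-07). The interactions did not pass, at 0.20 for Atf3 (adjusted p = 0.0867) and 0.19 for Ddit3 (adjusted p = 0.221), though that of Atf3 passed without replicate 2 of WTL+JSH23 (0.26, adjusted p = 0.022). The annotation also places Mars, the methionyl-tRNA synthetase gene, over Ddit3. Mars rose with JSH-23 as well, by 0.59 without LPS (adjusted p = 3.01e-08) and 1.19 with it (adjusted p = 1.01e-12). Whether the counting used strand is not given in the sources used here. The count of Ddit3 was whole in every library, and whether reads of Mars entered it was not tested. A second Ddit3 entry of the annotation was listed at 0 in every library and was left out.

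Trib3 and Ppp1r15a limit the response. TRIB3 is a pseudokinase induced by ATF4 and CHOP that restrains both ATF4 and AKT, and GADD34, the product of Ppp1r15a, brings a phosphatase to eIF2. Trib3 (ENSMUSG00000032715.9, chr2:152337422-152344032, minus strand) was close to silent without JSH-23, at 0.765, 0.654 and 1.10 CPM in WT and 0.659, 0.400 and 0.506 in WTL, or 11 to 32 expected counts a library. With JSH-23 it reached 6.88, 8.25 and 8.95 CPM, and with both agents 9.92, 10.6 and 17.0. The groups with JSH-23 thus stood clear of those without it. The log2 fold change was 3.27 without LPS (SE 0.231, adjusted p = 1.81e-10) and 4.58 with it (SE 0.256, adjusted p = 3.44e-12), the largest difference among the 10 genes under LPS.

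The LPS differences of Trib3 had opposite signs. Without JSH-23 the difference was -0.68 (SE 0.406) with overlapping groups and did not pass (adjusted p = 0.149, but 0.0412 without replicate 3 of WTL+JSH23). After JSH-23 Trib3 rose by 0.63 with LPS (SE 0.157, adjusted p = 0.00177). Without replicate 3 of WTL+JSH23 this rise was 0.36 (adjusted p = 0.0216), and on the TPM scale it was 0.38 and did not pass (adjusted p = 0.0756). The interaction was 1.31 (SE 0.433, adjusted p = 0.0403), and 0.68 on the TPM scale (adjusted p = 0.086). It rested on few counts: without WT replicate 4 or 6, WTL replicate 4, 5 or 6, or WT+JSH23 replicate 1 it lay between 1.09 and 1.52, with adjusted p of 0.0658, 0.144, 0.0529, 0.148, 0.0738 and 0.0647.

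Ppp1r15a (ENSMUSG00000040435.12, chr7:45522916-45526268, minus strand, overlapping Tulp2) followed LPS. It was at 78.7, 74.7 and 82.3 CPM in WT and 90.6, 95.7 and 99.6 in WT+JSH23, against 225.4, 230.6 and 225.8 in WTL and 181.0, 189.0 and 230.5 in WTL+JSH23. The LPS groups did not overlap the others. LPS raised it by 1.53 on the log2 scale (SE 0.066, adjusted p = 1.07e-14) without JSH-23 and by 1.07 (SE 0.065, adjusted p = 7.48e-12) after it. JSH-23 alone raised it by 0.28 (adjusted p = 0.00178). The interaction of -0.46 (SE 0.092, adjusted p = 0.00123) was negative, and its adjusted p was 0.148 on the TPM scale.

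The difference of Ppp1r15a between WTL+JSH23 and WTL was weak. It was -0.18 (SE 0.063, adjusted p = 0.0192), the groups overlapped through replicate 3 of WTL+JSH23, and on the TPM scale the value was 0.01 (adjusted p = 0.966). Without that library it was -0.30 (adjusted p = 5.54e-06), while without WTL replicate 5 or WTL+JSH23 replicate 1 or 2 the adjusted p was 0.0633, 0.164 and 0.0892.

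Chac1 and Asns are classical amino acid response targets. CHAC1 degrades glutathione, and asparagine synthetase, the product of Asns, makes asparagine from aspartate and glutamine. Chac1 (ENSMUSG00000027313.3, chr2:119351229-119354381, plus strand) was at 0.184, 0.142 and 0.207 CPM in WT, which is 5 or 6 expected counts a library, and at 0.736, 0.367 and 0.737 in WTL. With JSH-23 it was at 3.38, 2.97 and 4.05 CPM, and with both agents at 7.65, 8.20 and 12.2. No groups overlapped, and the order matched that of Atf4. JSH-23 raised Chac1 by 4.27 on the log2 scale without LPS (SE 0.316, adjusted p = 3.61e-10) and by 3.95 with it (SE 0.236, adjusted p = 9.68e-12). LPS raised it by 1.74 without JSH-23 (SE 0.457, adjusted p = 0.00222) and by 1.42 after it (SE 0.173, adjusted p = 4.83e-07). The interaction of -0.32 had an interval from -1.26 to 0.63 and its sign turned on the TPM scale, so the difference was not resolved at these counts.

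Asns (ENSMUSG00000029752.12, chr6:7675169-7693254, minus strand) was at 4.86, 4.84 and 5.28 CPM in WT, 5.15, 6.50 and 5.80 in WTL, 26.4, 28.2 and 33.4 in WT+JSH23, and 46.8, 52.3 and 66.6 in WTL+JSH23. WT and WTL overlapped, and the groups with JSH-23 lay above both. The JSH-23 difference was 2.56 without LPS (SE 0.129, adjusted p = 1.01e-12) and 3.23 with it (SE 0.125, adjusted p = 1.11e-14). LPS alone gave 0.23 (adjusted p = 0.239), with an interval from -0.10 to 0.56, and -0.15 on the TPM scale. After JSH-23, LPS raised Asns by 0.91 (SE 0.097, adjusted p = 7.4e-08). The interaction of 0.68 passed (SE 0.195, adjusted p = 0.0196), but not without WT replicate 6 (0.64, adjusted p = 0.0545) or WTL replicate 4 (0.59, adjusted p = 0.0717).

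Sesn2 and Ddit4 are stress-induced brakes on the growth kinase complex mTORC1. Sestrin 2 also senses leucine, and REDD1, the product of Ddit4, acts through the TSC complex. Sesn2 (ENSMUSG00000028893.8, chr4:132492032-132510501, minus strand) was at 48.2, 44.3 and 53.1 CPM in WT, 34.9, 32.7 and 33.0 in WTL, 62.4, 67.6 and 68.1 in WT+JSH23, and 63.8, 63.0 and 71.2 in WTL+JSH23. WTL was the lowest group, and the 2 groups with JSH-23 overlapped. LPS lowered Sesn2 without JSH-23, by -0.53 on the log2 scale (SE 0.065, adjusted p = 3.1e-07). After JSH-23 the LPS difference was 0.00 (SE 0.060, adjusted p = 0.991), with an interval from -0.12 to 0.12, although on the TPM scale it was -0.20 (adjusted p = 0.032). The interaction of 0.53 passed (SE 0.088, adjusted p = 0.00023) in every alternative run. JSH-23 raised Sesn2 by 0.45 without LPS (adjusted p = 2.98e-06) and by 0.98 with it (adjusted p = 4.55e-11).

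Ddit4 (ENSMUSG00000020108.4, chr10:59949669-59951834, minus strand) had another pattern. It was at 6.97, 5.12 and 5.24 CPM in WT, 10.9, 10.7 and 9.95 in WTL, 4.18, 6.15 and 5.21 in WT+JSH23, and 14.3, 14.8 and 19.7 in WTL+JSH23. The groups without LPS overlapped, and those with LPS lay above them and apart from each other. Without LPS the JSH-23 difference was -0.17 (SE 0.152, adjusted p = 0.407), with an interval from -0.47 to 0.13, whereas with LPS it was 0.62 (SE 0.125, adjusted p = 0.000274). LPS raised Ddit4 by 0.86 without JSH-23 (SE 0.139, adjusted p = 1.33e-05) and by 1.66 after it (SE 0.136, adjusted p = 1.13e-09). The interaction of 0.79 (SE 0.196, adjusted p = 0.00732) passed in every alternative run. Ddit4 was thus the gene of the 10 with a rise under JSH-23 in the presence of LPS and none called in its absence.

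Gdf15 encodes a secreted stress cytokine of the TGF-β family (ENSMUSG00000038508.7, chr8:70629393-70632456, minus strand). It was at 1.22, 1.45 and 2.24 CPM in WT, 11.7, 12.5 and 12.9 in WTL, 23.6, 22.8 and 32.9 in WT+JSH23, and 94.8, 92.8 and 161.4 in WTL+JSH23. Each group lay above the one before it without overlap. The log2 fold change with JSH-23 was 4.03 without LPS (SE 0.278, adjusted p = 1.2e-10) and 3.23 with it (SE 0.181, adjusted p = 3.66e-12). With LPS it was 2.94 without JSH-23 (SE 0.319, adjusted p = 5.77e-08) and 2.13 after it (SE 0.161, adjusted p = 2.75e-10). The interaction of -0.80 did not pass (adjusted p = 0.168), but without replicate 3 of WTL+JSH23, which was 1.72 times the mean of the other libraries of its group, it was -1.11 (adjusted p = 0.000928).

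On the TPM scale, which divides each value by transcript length before scaling the library, the 10 genes spanned a wide range of levels. In WT the order was Atf3 (349.8 ± 8.05 TPM, SD, n = 3), Atf4 (133.6 ± 0.68), Ppp1r15a (82.5 ± 4.40), Ddit3 (56.6 ± 2.07), Sesn2 (24.3 ± 2.35), Ddit4 (6.21 ± 1.15), Asns (4.83 ± 0.37), Gdf15 (2.26 ± 0.71), Trib3 (0.793 ± 0.21) and Chac1 (0.207 ± 0.042), and no neighbours overlapped. In WTL, Ppp1r15a came first (183.1 ± 10.5 TPM), Gdf15 and Sesn2 overlapped at 13.4 and 13.3, and Chac1 and Trib3 overlapped at the bottom. In WTL+JSH23 Atf4 came first (292.6 ± 23.1 TPM), ahead of Atf3 (244.4 ± 26.4), and Gdf15 had moved from the eighth place in WT to the fourth (138.0 ± 44.5), where it overlapped Ppp1r15a (184.7 ± 25.2). Trib3 (9.99 ± 3.04) and Chac1 (9.38 ± 2.36) were the lowest there and overlapped, and Trib3 also overlapped Ddit4 (15.1). In WT+JSH23 Trib3 (7.28) and Ddit4 (5.55) overlapped, as did Ddit4 and Chac1 (4.02), the lowest.

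Over the 12 libraries the genes fell into patterns that followed the group means, so correlations between them describe the 4 groups more than single cultures. Pearson's r of log2 CPM with Atf4 was 0.989 for Chac1, 0.986 for Asns, 0.947 for Gdf15 and 0.932 for Trib3, but 0.178 for Atf3 and 0.358 for Ppp1r15a. Ddit3 was closest to Sesn2 (0.944), Ppp1r15a to Ddit4 (0.863), and Atf3 and Ppp1r15a ran in opposite directions (-0.822). Among 7691 protein-coding genes outside the group with a mean of at least 10 CPM, those most like Atf4 were Tbcel (r = 0.997), which went from 39.1 CPM in WT to 156.2 in WTL+JSH23, and Fem1b (0.996). Fem1b (0.992) and Zdhhc18 (0.992) were the most like Chac1, Chpf2 (0.994) and the alanyl-tRNA synthetase gene Aars (0.994) the most like Asns, and Abcc1 (0.993) and Zfp655 (0.993) the most like Gdf15. For Atf3 they were Vps37b (0.993) and Pcyt1a (0.992), for Ddit3 Wfs1 (0.988) and Pdp1 (0.987), for Trib3 Zfp874b (0.993) and Lamc1 (0.992), and for Sesn2 Trpv4 (0.988) and Abhd4 (0.987). Ppp1r15a was most like the NF-κB inhibitor gene Nfkbib (0.997) and the kinase gene Pim1 (0.997), both higher with LPS, and Ddit4 was most like Sik2 (0.975) and Cep85l (0.969).

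Most amino acid supply genes controlled by ATF4 were higher with JSH-23, as Asns was, and none passed as lower. The counts of this and the lists that follow stand beside 18.8% of all genes higher and 22.1% lower without LPS, and 24.5% higher and 24.2% lower with it. Of the synthesis genes, 7 of 10 tested were higher with JSH-23 in each comparison and none lower, with a median log2 fold change of 0.54 without LPS and 0.63 with it. Gpt2, a glutamate-pyruvate transaminase gene, rose by 1.34 and 1.83, and Phgdh, which starts serine synthesis, by 1.76 under LPS (adjusted p = 1.06e-08). Pycr1, of proline synthesis, was at the threshold without LPS (1.34, SE 0.531, adjusted p = 0.0495), and without WT replicate 4 it was 0.99 (adjusted p = 0.19). Its mean level in WT was 0.13 CPM. Of the amino acid transporter genes, 6 of 9 were higher without LPS and 8 of 9 with it, and none was lower. Members that did not pass included Psph (0.23 and -0.01), Slc7a3 (0.30 and -0.18) and Slc38a2 without LPS (-0.02). The glycine transporter gene Slc6a9 was the largest, at 3.15 without LPS (adjusted p = 1.05e-14) and 3.97 with it (adjusted p = 3.3e-15), followed by Slc7a1, of cationic amino acid uptake, without LPS (1.22) and Slc1a4, of neutral amino acid uptake, with it (1.97, adjusted p = 6.17e-08). Levels without JSH-23 were low, with means of 1.80 CPM in WT and 1.03 in WTL for Slc6a9 and 0.76 in WTL for Slc1a4.

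The cytosolic aminoacyl-tRNA synthetases, which charge tRNAs with amino acids, split. With JSH-23 alone 11 of 20 were higher and 4 lower, and under LPS 12 were higher and 2 lower. Cars rose by 0.95 and 1.54, Eprs by 0.80 without LPS and Yars by 1.37 with it. Vars fell by 0.38 without LPS (adjusted p = 0.000128), Wars fell by 0.26 with it (adjusted p = 1.14e-05), and Kars fell slightly in both (-0.15 and -0.17), values that did not pass on the TPM scale. In the interaction 11 of 20 were positive and none negative, with a median of 0.23, beside 0.03 for all genes.

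The ER chaperones, which belong to the ATF6 and XBP1 branches of the unfolded protein response, did not share the rise. With JSH-23 alone 1 of 10 was higher (Creld2, 0.26) and 3 were lower, and under LPS none was higher and 9 were lower. Hspa5, the main ER chaperone BiP, fell by 0.16 without LPS (adjusted p = 0.00205) and by 0.54 with it (adjusted p = 1.34e-10), and Sdf2l1 fell by 0.29 and 0.45. The median of the list under LPS was -0.23, and the number lower ranged from 4 to 9 over the alternatives. Among 11 other ATF4 and CHOP targets, 6 were higher and 2 lower in each JSH-23 comparison. Vegfa, the angiogenic growth factor, rose by 1.15 and 1.54, the autophagy receptor gene Sqstm1 by 1.17 without LPS, and the tRNA exporter gene Xpot by 0.97 with it. Herpud1, of ER-associated degradation, fell by 0.49 and 0.41. The other genes that passed as lower were Pmaip1 without LPS (-0.18, adjusted p = 0.00491) and Nupr1 with it (-0.37, adjusted p = 0.000343). That of Nupr1 did not pass on the TPM scale (adjusted p = 0.102).

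Upstream of ATF4, few genes passed with JSH-23 alone. Of 8 genes for eIF2 kinases and the proteins that act on them, 1 was higher and 1 lower with JSH-23 alone, and 5 were higher and 1 lower under LPS. The shares without LPS were not above those of all genes. The higher one was Impact, whose product is known to hold back the kinase GCN2, at 1.16 without LPS (adjusted p = 1.06e-11) and 1.64 with it (adjusted p = 6.78e-14). Eif2ak4, which encodes GCN2, rose by 0.51 under LPS. The lower one was Eif2ak2, the double-stranded RNA kinase PKR and an interferon target, at -0.53 and -0.85. Of the 12 eIF2, eIF2B and phosphatase subunits, 1 was higher and 2 lower without LPS and 2 higher and 6 lower with it. Eif2s2 rose by 0.48 and 0.43, and Ppp1cb, a catalytic subunit that can pair with GADD34, fell by 0.28 and 0.57. The median of this list under LPS was -0.09 and changed sign between alternatives.

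Among the bZIP partners of ATF4 and CHOP, 5 of 8 were higher and 2 lower with JSH-23 in each comparison. Cebpg, a dimer partner of ATF4, rose by 0.44 without LPS (adjusted p = 9.55e-08), Jdp2 by 0.79 without LPS, and Cebpa and Cebpb by 0.98 and 0.58 with it. Cebpd fell by 0.71 and 1.19, and Nfe2l2, which encodes the antioxidant factor NRF2, by 0.49 and 0.57. The closest relatives of the stress genes did not move as one: 4 of 9 were higher and 4 lower without LPS, and 6 higher and 3 lower with it. Ddit4l, the relative of Ddit4, rose by 1.58 (adjusted p = 2.13e-07) and 1.80 (adjusted p = 2.6e-07). Its level was low, with means of 1.11 CPM in WT, 0.75 in WTL, 3.31 in WT+JSH23 and 2.58 in WTL+JSH23. Trib1 fell by 1.03 (adjusted p = 4.34e-10) and 1.14 (adjusted p = 4.07e-11) where Trib3 rose. Chac2 fell by 0.50 under LPS where Chac1 rose, and Sesn1 fell by 0.45 with JSH-23 alone and rose by 0.68 under LPS. Of 10 mTORC1 regulators, which include Sesn1, Sesn3 and Ddit4l but not Sesn2 or Ddit4, 4 were higher and 2 lower without LPS, and 8 were higher and none lower with it, among them the GTPase gene Rragd (1.21 and 1.23).

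**Figure D4:**
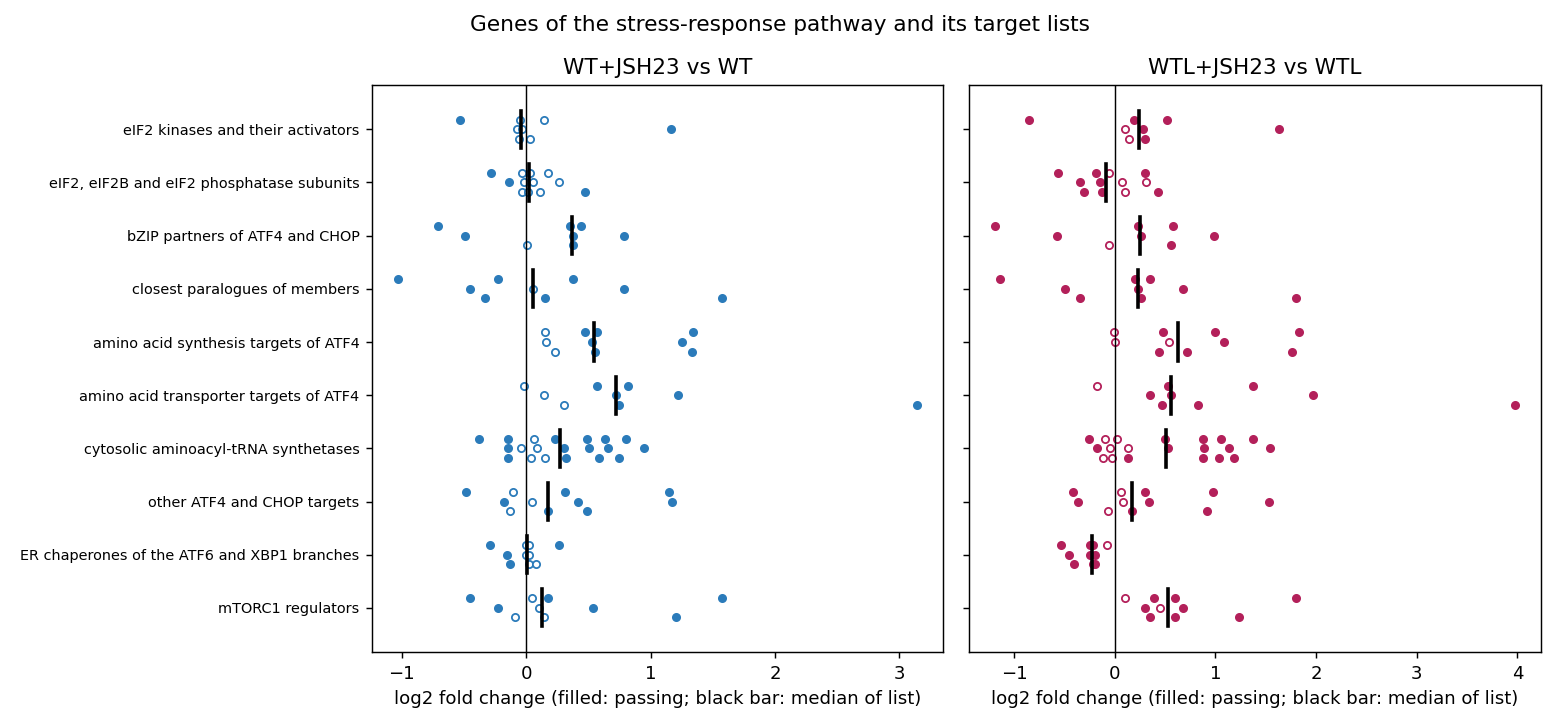
Log2 fold change with JSH-23 of each gene of 10 lists (rows), without LPS (left) and with LPS (right), filled where the adjusted p was under 0.05 and with a black bar at the list median. The medians of the amino acid synthesis and transporter lists lie at 0.54 and 0.72 without LPS and 0.63 and 0.56 with it, and that of the ER chaperones at 0.01 and -0.23.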

How the data were processed

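RNA-seq of 12 BMDC libraries (4 groups of 3) was used. Per the labels, ribosomal RNA was depleted, while the methods of the study name a polyA kit; which applied is unclear. The authors trimmed the reads, aligned them to mm10 with STAR (2.6.0c in the submitters' processing notes) and quantified genes with RSEM, and deposited an expected count and a TPM value per gene; the GENCODE release is not given in the sources used here. Between 7.75% and 8.52% of the gene values in a library with counts were not whole, but none of the 10 genes had a fractional count. Gene identifiers were matched without version to GENCODE M21 (GRCm38), for 55154 of 55335.

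Expected counts were rounded and tested with edgeR 4.0.16 (R 4.3.3): genes kept by filterByExpr (14357, all 10 members among them), TMM scaling, a quasi-likelihood fit with 1 mean for each of the 4 groups (8 residual degrees of freedom), 5 comparisons, and Benjamini-Hochberg adjustment over all genes tested. A gene passed at an adjusted p under 0.05. SE is the log2 fold change over the root of its F statistic. Intervals are approximate 95% intervals from it with a normal multiplier, so they are somewhat narrower than the F test implies. CPM is the count scaled to 1e+06 on TMM-corrected library size. Totals were 24664724 to 34837847, and precision at low counts is limited accordingly. Alternatives were other scalings (DESeq2 1.42.0 size factors, upper quartile), DESeq2, no filter, a mean of at least 1 CPM, unrounded counts, limma 3.58.1 on log2(TPM + 1), only the groups compared, a replicate block, and each of the 12 libraries left out. The fits were tested on simulated data. On labels alone the libraries of a group are separate samples, described as biological replicates, and p-values measure the spread between them.

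Members, lists and tests were chosen with earlier results of these data known. Named beside the members are, for each member, the 2 most correlated protein-coding genes, and for each list and JSH-23 comparison at most the 2 largest rises and falls that passed. Genes not named by that rule are Mars (chosen for its overlap with Ddit3), Psph, Slc7a3 and Slc38a2 (list members that did not pass, chosen after their values were seen) and the marker genes. Promoter sequences came from RefSeq (GRCm38.p6). No protein sequence was used here.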

Additional observations from a re-analysis of the deposited data

Results flagged for a closer look

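For 5 genes the size of the LPS change depended on JSH-23 by the interaction test of edgeR (adjusted p under 0.05). The difference was 1.31 on the log2 scale for Trib3 (LPS change -0.68 without and 0.63 with JSH-23), 0.79 for Ddit4 (0.86 and 1.66), 0.68 for Asns (0.23 and 0.91), 0.53 for Sesn2 (-0.53 and 0.00) and -0.46 for Ppp1r15a (1.53 and 1.07). For Trib3 the call rested on 11 to 32 counts a library in the groups without JSH-23. No group had 4 or more libraries, so single libraries were not tested as outliers.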

How the results depend on the processing

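Of 1019 recomputed log2 fold changes of the 10 genes, 975 kept their direction and their side of the threshold, 14 lost it, 19 gained it and 11 changed sign. The scale log2(TPM + 1) shifts the median of all genes by -0.295 (LPS), -0.18 (LPS after JSH-23), 0.11 (JSH-23 under LPS) and 0.11 (interaction). On it, the LPS change became -0.078 for Atf4 and -0.15 for Asns, and the JSH-23 change of Ppp1r15a under LPS 0.0057. The Chac1 interaction went from -0.32 to 0.66, a larger move than the median shift. Mean Chac1 was 0.207 TPM in WT and 0.57 in WTL, below the 1 added to each value, and the part of this was not tested. The LPS change of Sesn2 after JSH-23, near 0, was 0.0088 with DESeq2 size factors, 0.0076 with DESeq2 and 0.00061 with only the groups compared, and with 1 library left out ran from -0.057 to 0.030. The number of genes passing the interaction, 5, was 8 with no filter and 8 with the replicate block, and 3 to 7 with 1 library left out (3 without WT replicate 6 or WTL replicate 4); the cause was not tested. The labels do not say whether replicate numbers pair the samples, and the values did not decide it. Deviations of same-numbered libraries correlated weakly, at 0.014 to 0.061 (other pairs -0.056 to 0.036), yet 10 of 12 libraries were closest to their own number. With the replicate block, all 10 genes passed in WTL against WT instead of 8 (Asns 0.23, adjusted p = 0.0467; Trib3 -0.66, 0.0498), the Gdf15 interaction was -0.82 (adjusted p = 0.000842), and those of Atf4 (0.0122) and Atf3 (0.0155) also passed; only the LPS comparisons and the interaction can hold the block. Depth limits Chac1 and Trib3 without JSH-23, at 5 to 32 counts a library.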
